A study of Mus musculus with 5 samples.

Results

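Immediate early genes are switched on within minutes when a cell receives a growth factor, cytokine, microbial or stress signal, because their activators are already present and need only be phosphorylated. Their products include the Fos and Jun proteins, which pair through leucine zippers to form the transcription factor AP-1, and the zinc finger protein Egr1. Their messages and proteins are short lived, and in myeloid cells AP-1 takes part in activation, cytokine transcription and survival. The 10 genes described here were Fos, Fosb, Fosl2, Jun, Junb, Jund, Egr1, Atf3, Ier2 and Ier3, chosen by name as the rows of the deposited table that carry these symbols. All 10 had a row of their own among 14462 rows. Ier3 does not encode a transcription factor, so the genes are called immediate early genes below.

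RNA was sequenced from leukocytes of mouse lung, sorted for the surface protein CD45. The IR group had 2 libraries, from animals with MC38 tumours (a mouse colon adenocarcinoma line) that had been irradiated, and the ctrl group had 3 libraries. All 5 carried the label MC38/MC38 tumors, and lungs were taken 3 days after irradiation (IR). The strain, age, sex and radiation dose are not given in the labels, nor whether each library was a separate animal, so p-values here speak only of the scatter among the 5 libraries, part of which could be technical. The controls are labelled ctrl with no further description. Ptprc, which encodes CD45, had values of 17369 and 27247 in IR and 15543 to 15842 in ctrl, above the 99.8th percentile of the table in every library. Values are read counts that the authors had scaled between libraries, and whole reads recovered from them totalled 8070787 and 10011125 in IR and 8013744 to 10172259 in ctrl.

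The promoters of Ier3, Fosl2, Fos and Jun are shown because these genes spanned the range of the response, with Ier3 highest, Fosl2 between, and Fos and Jun with IR and ctrl libraries that overlapped. Each line holds the 250 bases before the RefSeq start on build GRCm38.p6, with motif matches in capitals. They lie at chr17:35821463-35821712 (plus strand), chr5:32136222-32136471 (plus strand), chr12:85473640-85473889 (plus strand) and chr4:95052223-95052472 (minus strand), in the order printed.
Ier3: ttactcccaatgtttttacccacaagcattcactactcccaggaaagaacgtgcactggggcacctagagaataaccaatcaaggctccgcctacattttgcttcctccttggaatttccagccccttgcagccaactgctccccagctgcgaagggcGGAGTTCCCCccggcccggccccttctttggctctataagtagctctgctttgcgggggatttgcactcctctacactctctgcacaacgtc
Fosl2: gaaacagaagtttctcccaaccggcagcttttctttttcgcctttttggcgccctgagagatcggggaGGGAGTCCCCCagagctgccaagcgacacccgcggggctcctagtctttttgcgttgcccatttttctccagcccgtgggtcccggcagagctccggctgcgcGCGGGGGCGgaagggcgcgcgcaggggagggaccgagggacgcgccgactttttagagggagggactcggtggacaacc
Fos: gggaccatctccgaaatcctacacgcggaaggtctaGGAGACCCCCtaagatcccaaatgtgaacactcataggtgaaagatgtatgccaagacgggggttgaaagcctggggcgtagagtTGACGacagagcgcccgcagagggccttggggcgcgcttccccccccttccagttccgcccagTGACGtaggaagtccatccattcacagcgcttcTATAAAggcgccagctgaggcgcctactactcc
Jun: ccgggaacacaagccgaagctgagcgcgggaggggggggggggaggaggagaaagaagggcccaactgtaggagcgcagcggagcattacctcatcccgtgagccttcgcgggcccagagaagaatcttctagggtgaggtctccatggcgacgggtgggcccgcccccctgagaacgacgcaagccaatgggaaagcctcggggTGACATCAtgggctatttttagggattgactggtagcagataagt
In Ier3 the capitals mark an NF-kB site at positions -92 to -83 from the start. In Fosl2 they mark 2 overlapping NF-kB matches and the Egr motif GCGGGGGCG. In Fos they mark an NF-kB match, the cyclic AMP response core TGACG at 2 places and the TATA box TATAAA at positions -33 to -28. The Jun window held the octamer TGACATCA, a variant AP-1 site through which AP-1 is known to act on Jun.

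Both strands were searched in windows of 300 bases, which add 50 bases after the start, for 8 of the 10 genes. Egr1 and Ier2 were not matched. TGACG lay in 4 of the 8 windows (Fos, Fosb, Junb and Atf3) and in 20.8% of all 32851 RefSeq promoter windows. The NF-kB site was also in 4 (Fos, Fosb, Fosl2 and Ier3), against 8.46% of all windows, and GCGGGGGCG was in 2 (Fosb and Fosl2), against 2.91%. TGACATCA was in Jun alone, against 3.62%, and TATAAA was in 2 (Fos and Junb), against 13.6%. The Junb match lay at positions 1 to 6, after the RefSeq start and not before it as in Fos. The AP-1 site TGANTCA, the full response element TGACGTCA and the serum response CArG box, found in 7.81%, 1.79% and 1.63% of all windows, matched none of the 8. Bases outside these windows, and the promoters of Egr1 and Ier2, were not searched. A lack of matches therefore does not extend to them. The windows follow RefSeq starts: that of Jund ends before the GENCODE gene begins, and those of Fosl2 and Atf3 lie inside the GENCODE gene, past its outermost start. These matches describe letters in the window and not binding. GC content is related to such counts, and its median was 62.3% in the 8 windows and 52.7% in all.

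IR was set against ctrl to see how the RNA of lung leukocytes differed after a tumour had been irradiated. Ier3 and Egr1 rose, and the other 8 genes did not pass the test (limma on log2(value + 1), Benjamini-Hochberg adjusted p under 0.05 over 12777 genes). Among all genes tested, 1.5% were called, 1.14% higher in IR and 0.36% lower, and among the 2983 genes with a mean of at least 500, as all 10 had, 3.75% were called higher. Both IR libraries lay above all ctrl libraries for 7 of the 10 genes, against 15.2% of all genes tested and 22.9% of those with a mean of at least 500. None of the 10 lay below, against 16.3% of all, and groups that did not overlap in either direction made up 31.5%. With edgeR on recovered reads Ier3 alone of the 10 passed, against 1.03% of all genes called higher. The median log2 fold change of the 10 was 0.41, and that of all genes tested was -0.05. Neutrophil markers were higher in the same libraries (median log2 fold change 1.28 over 16 markers), and their part in these results was not tested. In bulk RNA, more cells of a type and more RNA per cell cannot be told apart.

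**Figure D1:**
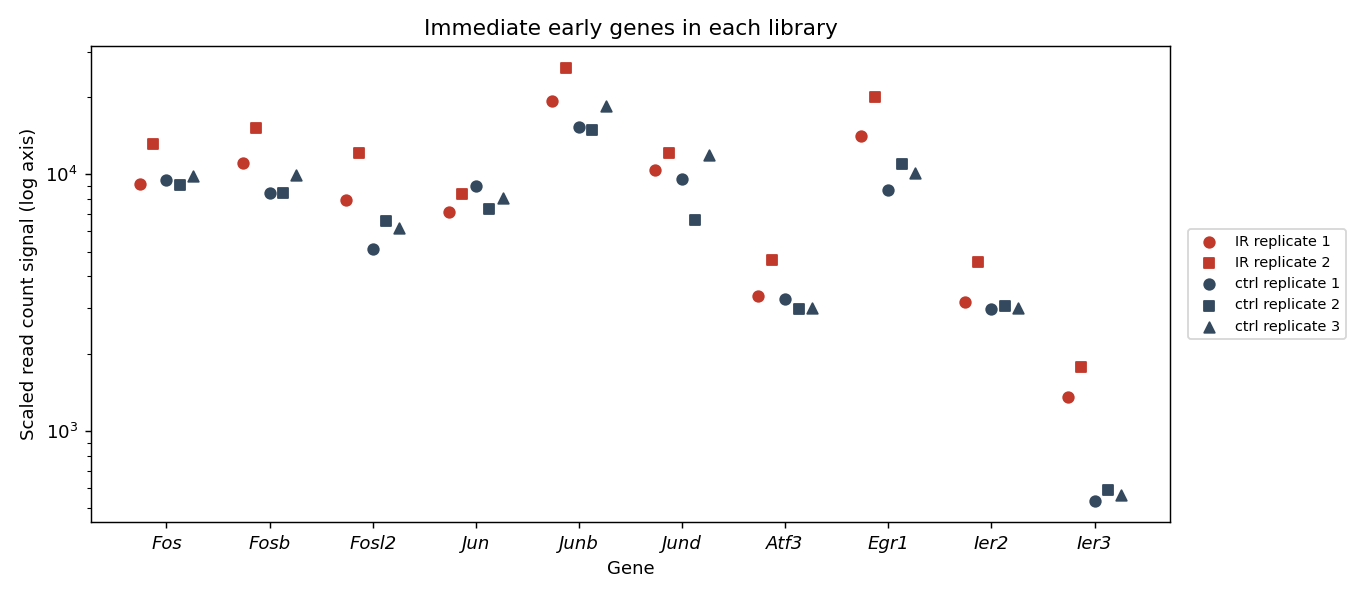
Scaled read count of the 10 immediate early genes in each library, on a log axis; each point is 1 library, with IR in red and ctrl in dark blue. Ier3 shows the widest gap between the groups, 1358 and 1772 in IR against 535 to 590 in ctrl, while the groups overlap for Fos, Jun and Jund.

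Ier3 encodes a small stress and growth factor response protein that modulates cell survival and ERK signalling. Its values were 1358 and 1772 in IR, against 535, 590 and 561 in ctrl, from 1453 and 2108 recovered reads in IR and 633 to 768 in ctrl. Both IR libraries stood well clear of the ctrl libraries, which were close to each other. The means were 1565 ± 293 (SD, n = 2) in IR and 562 ± 27.6 (SD, n = 3) in ctrl, a 2.76-fold difference, with a log2 fold change of 1.46 ± 0.23 (SE; 95% interval 0.99 to 1.94; limma adjusted p = 0.00151). By p it ranked 12th of the 12777 genes, and the call held whichever single library was left out (adjusted p 0.000698 to 0.0268). It stood at the 92.9 and 93.9 percentile of the table in IR, against 80.6 to 82.0 in ctrl. It did not pass without a mean trend in the variance (adjusted p = 0.350), where no gene passed.

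Egr1, a zinc finger factor that binds GC-rich sites, had values of 14058 and 20021 in IR, against 8716, 10991 and 10103 in ctrl. Both IR libraries lay above the ctrl libraries, with IR replicate 2 the highest. The log2 fold change was 0.76 ± 0.19 (SE; 95% interval 0.38 to 1.15; limma adjusted p = 0.0391), a 1.70-fold difference. The call rested on the full set of libraries: the adjusted p was 0.289 without IR replicate 2, where the log2 fold change was 0.51, and 0.299, 0.131 and 0.122 without ctrl replicates 1, 2 and 3, while without IR replicate 1 it was 0.00208. With edgeR on the recovered reads it was 0.0715, and with robust estimation off 0.0951.

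The Fos proteins cannot pair with each other and bind DNA with a Jun partner. Fosl2 (Fra-2), a longer lived member, had 7969 and 12061 in IR, against 5122, 6583 and 6157 in ctrl. The groups did not overlap. The log2 fold change was 0.73 ± 0.20 (SE; 95% interval 0.32 to 1.14), and it missed the threshold (limma adjusted p = 0.0630). Of 11 alternatives that kept all libraries, Fosl2 passed in 3. These were limma with a pseudocount of 10 (adjusted p = 0.0356) or array weights (0.0372), and DESeq2 on recovered reads (0.0170). It did not pass with edgeR on recovered reads (0.0942) or with limma with robust estimation off (0.111). Nor did it pass limma without ctrl replicates 1, 2 and 3 (0.376, 0.171 and 0.161). The log2 fold change of Fosl2 was 1.03 without IR replicate 1 and 0.43 without IR replicate 2. Fosb, which also gives rise to a truncated, stable protein, had 11115 and 15136 in IR, against 8435, 8446 and 9980 in ctrl. Its log2 fold change was 0.54 ± 0.18 (SE; 95% interval 0.16 to 0.92; limma adjusted p = 0.154), again with no overlap between the groups. Fos, the founding member, had 9196 and 13119 in IR, against 9516, 9045 and 9834 in ctrl. Its groups overlapped, as IR replicate 1 lay between the ctrl libraries. The log2 fold change was 0.22 ± 0.18 (SE; 95% interval -0.17 to 0.60; limma adjusted p = 0.628), and it was -0.041 without IR replicate 2.

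The Jun proteins pair with each other or with Fos and ATF proteins. Junb, which can oppose Jun in proliferation, had the highest values of the 10, with 19247 and 26057 in IR against 15339, 14906 and 18389 in ctrl. The groups did not overlap, and the log2 fold change of 0.47 ± 0.18 (SE; 95% interval 0.10 to 0.84) did not pass (limma adjusted p = 0.205). Without IR replicate 1 the log2 fold changes of Junb and Fosb were 0.69 and 0.76, and without IR replicate 2 they were 0.25 and 0.32. Neither gene passed when a ctrl library was left out (limma adjusted p 0.296 to 0.529 for Junb and 0.248 to 0.470 for Fosb). Jund, the most constitutive member, had 10386 and 12080 in IR and 9582, 6645 and 11922 in ctrl. Its ctrl libraries spread widely and overlapped with IR, and the log2 fold change was 0.30 ± 0.21 (SE; 95% interval -0.14 to 0.73; limma adjusted p = 0.540). Jun itself had 7155 and 8382 in IR and 9028, 7355 and 8097 in ctrl. Jun was the only one of the 10 with a negative log2 fold change (-0.07 ± 0.18, SE; 95% interval -0.44 to 0.30; limma adjusted p = 0.894), and that sign turned without IR replicate 1 (0.044) or ctrl replicate 1 (0.0050).

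Atf3, a stress-induced partner of Jun that represses transcription as a homodimer, had 3347 and 4634 in IR, against 3277, 2984 and 3025 in ctrl. IR replicate 1 lay just above the highest ctrl library. Its log2 fold change was 0.35 ± 0.20 (SE; 95% interval -0.06 to 0.75; limma adjusted p = 0.413). Ier2, a nuclear protein of the early serum response, had 3186 and 4572 in IR, against 2995, 3055 and 3022 in ctrl. It behaved much like Atf3: the ctrl libraries were close together, IR replicate 1 was slightly above them and IR replicate 2 clearly so. The log2 fold change of Ier2 was 0.34 ± 0.20 (SE; 95% interval -0.07 to 0.74; limma adjusted p = 0.437).

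**Figure D2:**
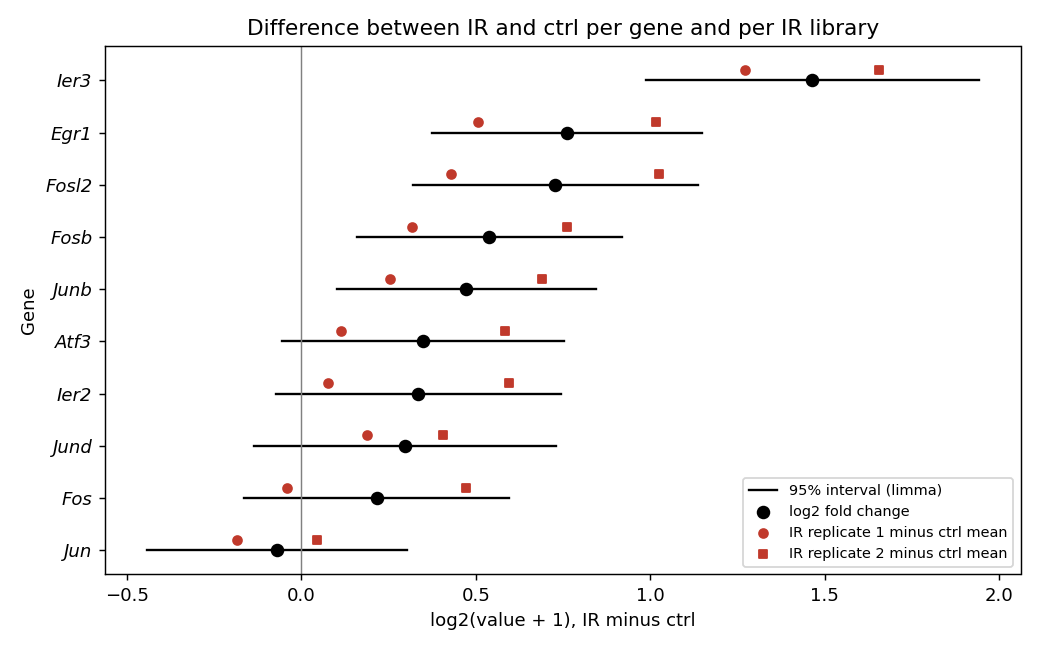
Difference between IR and ctrl on the log2(value + 1) scale for each gene, with the limma log2 fold change (black point), its 95% interval (line) and each IR library minus the ctrl mean (red). The interval lies above 0 for Ier3, Egr1, Fosl2, Fosb and Junb, of which only Ier3 and Egr1 passed the adjusted test. An interval above 0 means an unadjusted limma p under 0.05 and a rise, as in 7.76% of all genes tested. IR replicate 2 (square) lies right of IR replicate 1 (circle) for every gene.

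The 2 IR libraries differed from each other in the same direction for all 10 genes. Values in IR replicate 2 exceeded those in IR replicate 1 by 16.3% for Jund to 51.4% for Fosl2. Among all genes tested 47.3% were higher in IR replicate 2, among those with a mean of at least 500 it was 61.1%, and among the 373 with a mean of at least 3000 it was 72.1%. After scaling to library totals, which are larger in IR replicate 2 (8414753) than in IR replicate 1 (7544034), the count stayed at 10 of 10, against 39.1% of all genes tested, 45.1% of those with a mean of at least 500 and 57.9% of those with a mean of at least 3000. The log2 differences of the 10 from the ctrl mean had medians of 0.22 in IR replicate 1 and 0.64 in IR replicate 2. Together the 10 genes took 1.15% and 1.40% of the library total in IR, against 0.964% to 1.09% in ctrl.

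On profiles centred over the 5 libraries, 3 pairs of genes ran closest together. Fosl2 and Egr1 differed by 0.037 (root mean square, log2 scale), Fosb and Junb by 0.039, and Atf3 and Ier2 by 0.057. Fos lay 0.074 from Ier2 and 0.085 from Atf3, and the nearest gene to Jun, Jund and Ier3 was farther off (Fos at 0.18, Junb at 0.22 and Egr1 at 0.35). Jun and Ier3 were farthest apart, at 0.77. Outside the 10 genes, the profiles closest to Ier3 over the 5 libraries were those of Atp7b, Klf5 and S100a6 (0.10, 0.11 and 0.12). The nearest to Egr1 were Atp6v1g1, Tmem164 and Ehd1 (0.030, 0.045 and 0.049). Profiles over 5 libraries share the depth and make-up of each library, and the distances are descriptions.

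Levels can be compared between genes only per length, here as value per kilobase of annotated exon. The length joined the exons of all annotated transcripts, 9680 bases for Fosl2 and 6243 for Fosb. Their main transcripts have 6537 and 3782 bases, so the orders below depend on this choice. Junb was highest in both groups, with 9844 ± 2093 (SD, n = 2) per kb in IR and 7045 ± 825 (SD, n = 3) in ctrl. In IR the order then ran Jund, Fos, Egr1, Ier2, Jun, Fosb, Atf3, Ier3 and Fosl2. The IR libraries separated Junb from Jund, Jund from Fos, and Egr1 from Ier2, while the other neighbours overlapped. In ctrl the order was Junb, Jund, Fos, Jun, Egr1, Ier2, Atf3, Fosb, Fosl2 and Ier3. There Fos was separate from Jun, Ier2 from Atf3, Fosb from Fosl2 and Fosl2 from Ier3. Ier3 was thus lowest in ctrl, at 497 ± 24.4 per kb. On these lengths Ier3 stood above Fosl2 on average in IR, at 1384 ± 259, with ranges that overlapped those of Fosl2.

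The shares of the 3 Fos genes did not overlap between the groups, but shares of one whole are tied to each other and are not separate observations. For comparison, the values of 31.5% of all genes tested did not overlap in either direction. Per kilobase, Fos made up 60.0% and 60.3% of their summed level in IR, against 68.3%, 65.4% and 65.2% in ctrl, so both IR libraries lay below all ctrl libraries. Fosb made up 27.3% and 26.2% in IR, against 22.8%, 23.0% and 24.9% in ctrl. Fosl2 made up 12.6% and 13.5% in IR, against 8.93%, 11.6% and 9.91% in ctrl. Shares within a library do not depend on how libraries were scaled to each other. They do depend on the exon lengths used, which join all annotated transcripts. Among the 3 Jun genes, Jun made up 13.3% and 12.4% in IR, against 18.6%, 18.1% and 14.4% in ctrl, with no overlap. The shares of Junb and Jund overlapped, at 51.6% ± 2.65 and 35.6% ± 1.99 in IR (SD, n = 2) and 46.6% ± 3.69 and 36.4% ± 4.74 in ctrl (SD, n = 3). The ratio of the summed Fos genes to the summed Jun genes was 0.387 and 0.436 in IR and 0.389, 0.460 and 0.363 in ctrl, which overlapped. No test was run on these shares.

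**Figure D3:**
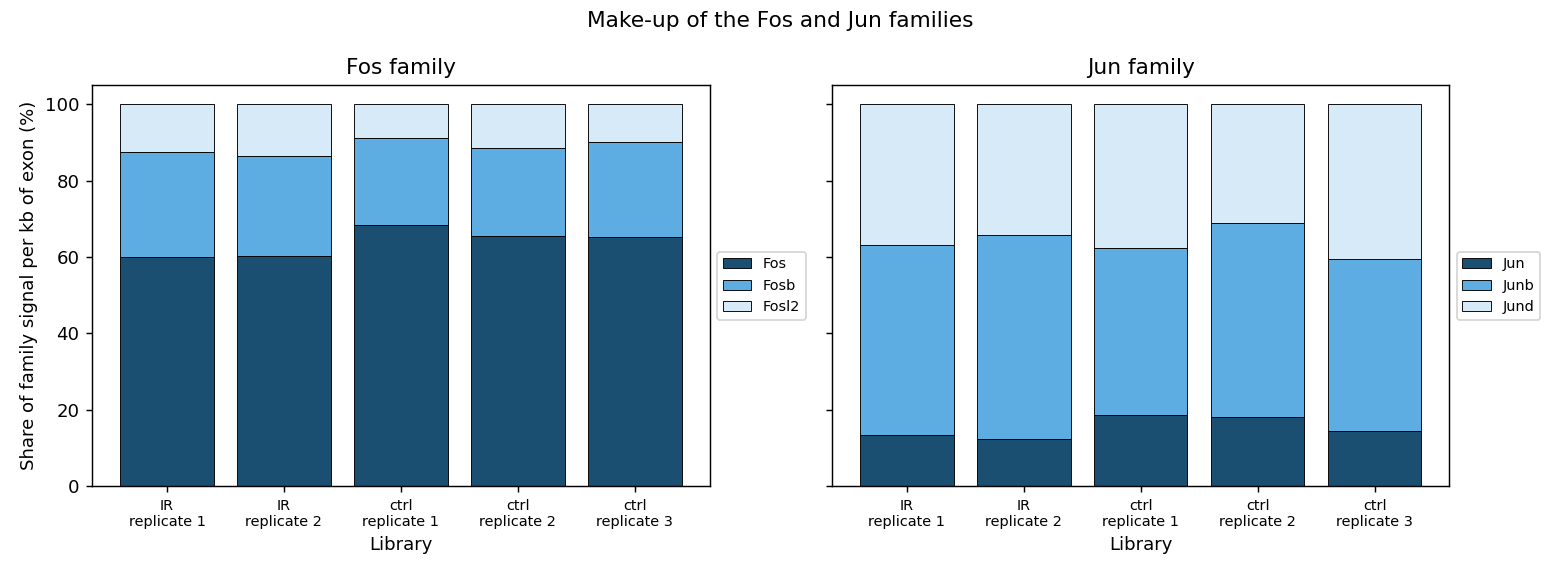
Share of each gene in the summed level per kilobase of exon of Fos, Fosb and Fosl2 (left) and of Jun, Junb and Jund (right), 1 bar per library. Fos takes about the same share in both IR libraries (60.0% and 60.3%), below the 65.2% to 68.3% of the ctrl libraries.

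Jun, Junb, Jund and Ier2 have 1 exon in the main GENCODE transcript, Egr1 and Ier3 have 2, and Fos, Fosb, Fosl2 and Atf3 have 4. Junb, Jund and Ier2 lie on chromosome 8. Ier3 spans 35821684 to 35822923 on chromosome 17 and Egr1 spans 34859823 to 34864984 on chromosome 18 (GRCm38). The pentamer ATTTA, the core of AU-rich elements that speed decay of an mRNA, was counted in the longest annotated 3′ UTR. Ier3 held 5 in 616 bases, or 8.12 per kb, which is the 99.3 percentile of 10829 genes tested with a 3′ UTR of at least 200 bases. Fos, Junb and Jun held 4.89, 4.10 and 3.24 per kb, Ier2 held 0 and Fosb held 0.434, where the median of the 10829 was 1.3. Egr1 held 1.64 per kb. Whether these counts bear on the differences between IR and ctrl was not tested. Jun, Junb and Jund overlap Junos, Prdx2 and Gm11175 on the other strand, and the strand setting of the counting is not given in the sources used here. Those 3 genes had values up to 36.5, 371 and 25.6, small beside the Jun genes.

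Of the 119 genes tested in 9 pathway lists around the 10, 4 rose and 1 fell. For comparison, 1.14% of all genes tested were called higher and 0.36% lower, and 3.75% of those with a mean of at least 500 were called higher. Fosl1 (Fra-1), the remaining Fos relative, had 893 and 1449 in IR, against 585, 549 and 604 in ctrl, and rose by 0.97 ± 0.25 on the log2 scale (SE; limma adjusted p = 0.0462). It was the only one of 11 other AP-1 proteins that passed, and the median of that list was 0.08. Cebpb and Cebpd, bZIP factors of myeloid inflammation that are not AP-1 proteins, rose by 0.83 ± 0.18 and 1.26 ± 0.32 (SE; limma adjusted p = 0.0223 and 0.0429), the 2 of 13 CREB, ATF and C/EBP factors that passed. Cebpb had 21705 and 29561 in IR, against 12479, 14548 and 15968 in ctrl. Trib1, a pseudokinase that brings the ubiquitin ligase COP1 to its targets, had 9160 and 15184 in IR, against 4941, 6574 and 7476 in ctrl. It rose by 0.92 ± 0.22 (SE; limma adjusted p = 0.0391) as 1 of 8 genes of JUN turnover and binding.

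Mef2c, a MADS-box factor of the Jun promoter that is also prominent in B cells, had 1242 and 821 in IR, against 2508, 1850 and 2289 in ctrl. It fell by 1.12 on the log2 scale (SE 0.22; limma adjusted p = 0.00886), the only one of 9 SRF, ternary complex and MEF2 factors that passed. In the same libraries the B cell markers had a median log2 fold change of -0.56, and their part in this result was not tested. With edgeR on the recovered reads Fosl1, Cebpd and Mef2c passed (adjusted p = 0.0474, 0.0444 and 0.0323), and Cebpb and Trib1 did not (0.0527 and 0.0585). None of these 5 genes passed limma without IR replicate 2 (0.112 to 0.508) or without ctrl replicate 1 (0.114 to 0.271). Without ctrl replicate 2 only Mef2c of the 5 passed (0.043), and without ctrl replicate 3 it was Cebpb, Trib1 and Mef2c (0.0433, 0.0349 and 0.0481).

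No gene passed limma in the other 5 lists. For comparison, 1912 of all 12777 genes tested had an unadjusted limma p under 0.05. Those higher in IR at that level made up 7.76% of all genes tested. Among 24 other immediate early genes the median was 0.35, 8 were higher and 1 lower at an unadjusted p under 0.05, edgeR called 0 and DESeq2 called 4 higher and 1 lower. Mcl1, a survival protein of the Bcl-2 family, had 15970 and 23163 in IR, against 11464, 12811 and 13819 in ctrl (log2 fold change 0.60, limma adjusted p = 0.104), and Btg1, an antiproliferative gene, had 0.11 (0.829). Among 12 feedback inhibitors of MAP kinases the median was 0.10, with 1 higher and 1 lower at an unadjusted p under 0.05. Dusp1, a phosphatase that switches off p38 and JNK, had 14522 and 24843 in IR, against 10619, 11691 and 14289 in ctrl (0.65, limma adjusted p = 0.130), and Dusp5 had 0.10 (0.863). Among 8 AU-rich element binding proteins the median was 0.02, and Zfp36 (tristetraprolin), which promotes decay of such messages, had 0.53 and Zfp36l2 had -0.13 (limma adjusted p = 0.184 and 0.773). That list had 1 gene higher and 1 lower at an unadjusted p under 0.05. The 22 MAP kinase cascade genes had a median of -0.07, with 2 higher and 1 lower at that level, and Map3k1 and Mapkapk2 had -0.31 and 0.41 (0.469 and 0.342). The 12 heat shock genes, which respond to handling of cells, had a median of 0.17 with 1 higher at an unadjusted p under 0.05, and Hsp90ab1 and Hspa5 had -0.04 and 0.17 (0.944 and 0.696). In these 4 lists edgeR called 0 and DESeq2 called 1, a higher gene among the feedback inhibitors.

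**Figure D4:**
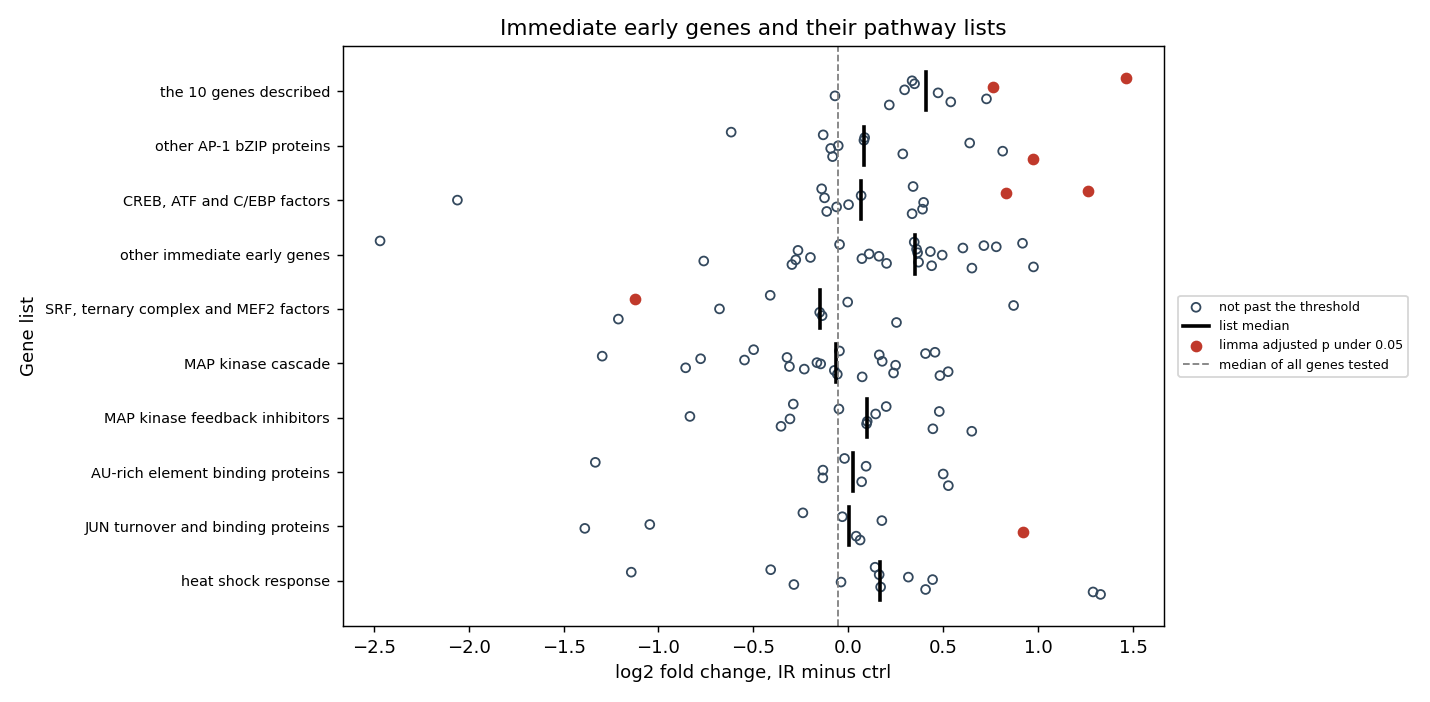
Log2 fold change of every gene tested in the 10 genes described and the 9 pathway lists, with red points past the limma threshold, black bars at each list's median and a dashed line at the median of all genes tested (-0.05). The 10 genes (median 0.41) and the other immediate early genes (0.35) have the highest medians among these lists.

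Markers of some leukocyte classes moved with the same groups. Beside the limma counts below, 1.14% of all genes tested were called higher and 0.36% lower. Of 16 neutrophil markers, 6 rose (among them Csf3r, the G-CSF receptor, by 1.28 and the chemokine receptor Cxcr2 by 1.66 on the log2 scale), and their summed value was 94867 and 181202 in IR, against 42001 to 71859 in ctrl. The median marker exceeded its ctrl mean by 0.87 (log2) for IR replicate 1 and by 1.72 for IR replicate 2, so that the library with more neutrophil RNA was also the one with higher immediate early values. No neutrophil marker passed without IR replicate 2, and 14, 1, 1 and 12 passed without IR replicate 1 and ctrl replicates 1, 2 and 3. Of 6 granule genes 2 rose (median 1.71), with 4 and 0 called without IR replicates 1 and 2, and 1, 2 and 3 without ctrl replicates 1, 2 and 3. Of 10 classical monocyte markers 3 rose (0.52), and 2 without ctrl replicate 1 or 2. Of 13 T cell markers 2 fell (-0.77) and of 10 B cell markers 1 fell (-0.56), while none of 12 alveolar macrophage (-0.55) or 8 NK cell markers (-0.07) passed limma, with 5 and 2 lower at an unadjusted p under 0.05, and edgeR and DESeq2 called 0 in both. The T cell calls were lost without any 1 of the ctrl libraries and the B cell call without ctrl replicate 1 or 3. Of 15 lung epithelial markers 2 rose (Scgb1a1 and Scgb3a2, secretory proteins of club cells). Of the 15, 6 were higher and 1 lower at an unadjusted p under 0.05, and edgeR called 3 higher. Of all 12777 genes tested, 1912 reached that unadjusted level with limma in either direction, and 7.76% were higher at it. All 15 markers summed to 119485 and 58503 in IR, of which Scgb1a1 gave 103972 and 50989, against sums of 24247 to 28246 in ctrl. The sum was thus higher in IR replicate 1, the library with the lower immediate early values. Endothelial (4 tested), fibroblast (3), erythroid (7) and platelet (4) markers gave 0 calls with limma and edgeR, with 1, 1, 0 and 0 at an unadjusted p under 0.05, and DESeq2 called 1 endothelial gene. The part of these classes in the immediate early values was not tested.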

How the data were processed

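The authors deposited 1 table of 5 libraries, made from a stranded kit for small inputs; HISAT2, HTSeq and mm10 are named per the submitters' processing notes, while how values were scaled, with which annotation and strand setting, is not given in the sources used here. Its values have 1 decimal and form a signal that the authors scaled between libraries from read counts. A straight line per library (1 read was worth 0.730 to 0.935) gave whole reads within 0.25 for 99.5% to 100% of values, and within 0.1 for 96.0% to 99.7%, but 91.0% in ctrl replicate 3.

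Genes reaching 10 in 2 or more libraries (12777) were fitted as log2(value + 1) with limma 3.58.1 (R 4.3.3; mean trend, robust, no covariate). P-values are two-sided and Benjamini-Hochberg adjusted over all 12777 genes; calls are under 0.05. Fold changes on this scale understate those of low genes. edgeR 4.0.16 (quasi-likelihood, TMM) and DESeq2 1.42.0 were run on recovered reads as alternatives chosen after seeing the values. The fits were tested on simulated data, where a larger share of the DESeq2 calls was false than the threshold allows, so its counts are given beside the others only. Replicate numbers follow accession order.

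The 10 genes and all lists were chosen with earlier results of these data known. Lists named up to 4 called genes each, or the 2 with the highest mean. Marker genes are mostly given as counts. The means of 500 and 3000, the motifs, the 3′ UTR counts and the shares were chosen after values were seen. GENCODE vM21 gave coordinates, exons and 3′ UTRs, and RefSeq (GRCm38.p6) gave promoters.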

Additional observations from a re-analysis of the deposited data

How the results depend on the processing

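Among 160 comparisons of a gene's result with its value under an alternative (10 genes, 16 alternatives), 142 kept direction and side of the threshold, 9 lost a call, 6 gained one and 3 turned sign. Those 3 were Jun without IR replicate 1 (0.044) and without ctrl replicate 1 (0.0050), and Fos without IR replicate 2 (-0.041). With 1 library left out, Fos ranged over -0.041 to 0.47 and Jun over -0.18 to 0.044. The 192 genes called became 314 with a pseudocount of 10, 485 with DESeq2 and 0 with the mean trend off, where 1245 had an unadjusted p under 0.05. Leaving out 1 library gave 30 to 1042, the lowest without ctrl replicate 1 and the highest without IR replicate 1. Of the 10 genes, 2 were called, and 1 to 5 with a library left out, 1 with a filter at 50, 1 with robust estimation off, 1 with edgeR and 0 with the trend off, where 1 had an unadjusted p under 0.05. The 5 pathway calls became 0 to 26 with a library left out, 3 with edgeR and 13 with DESeq2; the count of 0 arose without IR replicate 2 or ctrl replicate 1, with 13 and 20 genes at an unadjusted p under 0.05. Scaling to library totals moved the median of all genes from -0.05 to -0.17 and that of the 10 genes from 0.41 to 0.29, and the share of calls that were higher from 76.0% to 54.9%. The cause was not tested. No paired analysis was possible because the replicate numbers follow accession order only.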
